A study of Saccharomyces cerevisiae with 12 samples.

Results

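Peaks of open chromatin near the ends of the yeast chromosomes were examined in 12 ATAC-seq libraries of Saccharomyces cerevisiae. ATAC-seq uses the Tn5 transposase to cut and tag accessible DNA, and a peak is a stretch where such cuts pile up above the local background. A peak was counted as subtelomeric when its summit, the base of highest pileup, lay within 20 kb of a nuclear chromosome end. Positions are those of the sacCer3 build, but each right end was placed at the outermost base of any peak. Distances from right ends may thus be short, and some peaks counted just inside 20 kb may lie beyond it. The rule gave 827 of the 13052 peaks on the 16 nuclear chromosomes, out of 13746 peaks in all lists. The 32 windows of 20 kb cover 640 kb, or 5.30% of the nuclear genome, and held 6.34% of its peaks. At the edge of the window, the summits just inside lay 19892, 19910 and 19918 bp from a right end as placed here. Their fold enrichments over background were 2.49, 2.77 and 2.86. Those just outside lay 20019, 20026 and 20059 bp away, with fold enrichments of 2.67, 3.10 and 2.78.

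All libraries came from BY4741, a haploid laboratory strain, carrying a synthetic human HPRT1 locus (synHPRT1) or its reversed sequence (synHPRT1R). The construct sat on a YAC, a yeast artificial chromosome, or in chromosome XI, giving 4 groups of 3 libraries: HPRT1R YAC, HPRT1R integrated, HPRT1 YAC and HPRT1 integrated. Per the labels' protocols, the YAC strains grew in SC-Leu and the integrated strains in YPD, so format and medium cannot be told apart. Whether replicates were separate isolates is not in the labels, and p-values reflect only how these libraries vary. No group lacks a construct, and the subtelomeres described here are those of the host strain.

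Yeast chromosomes end in short TG-rich repeats bound by Rap1. Inside the repeats lies a core X element, with binding sites for the origin recognition complex and Abf1, and at some ends a Y' element lies between the X element and the repeats. Y' elements are near-identical from end to end and carry the YRF1 genes, which encode helicase-like proteins. Silencing by the Sir2, Sir3 and Sir4 proteins spreads from the repeats and the X element and lowers transcription of nearby genes, many of which belong to families for cell wall, sugar or vitamin use. Because Y' copies are so alike, a read from 1 copy may have been placed at another, and how such reads were handled is not stated in the labels. The copies are therefore not independent of each other.

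Subtelomeric peaks were a small part of every list. The HPRT1R YAC libraries held 70, 60 and 61 of them and the HPRT1R integrated libraries 77, 74 and 76. The HPRT1 YAC libraries held 58, 64 and 59 and the HPRT1 integrated libraries 74, 71 and 83. All YAC counts were below all integrated counts, and the YAC lists on average also held fewer nuclear peaks, with a mean of 988 in HPRT1R YAC against 1235 in HPRT1R integrated libraries and 1005 in HPRT1 YAC against 1123 in HPRT1 integrated libraries. Counts are therefore compared below as densities within a library. Read totals are unknown from peak lists, and the lowest local background at a nuclear peak, which stands for depth here, was 4.97 to 6.93 reads across libraries.

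The outer 20 kb carried more peaks per kb than the rest of the chromosomes in all 12 libraries. The density was 0.108 ± 0.0129 peaks per kb near the ends and 0.0891 ± 0.0108 farther in (mean ± SD, n = 12). The ratio of the outer 20 kb to the rest was 1.29, 1.13 and 1.28 in HPRT1R YAC libraries and 1.14, 1.20 and 1.16 in HPRT1R integrated libraries. It was 1.098, 1.24 and 1.09 in HPRT1 YAC libraries and 1.32, 1.38 and 1.22 in HPRT1 integrated libraries. The ratios were thus small but all above 1, with a mean log2 ratio of 0.27 ± 0.11 (SD, n = 12; exact two-sided sign-flip permutation test, p = 0.000488, the smallest that 12 libraries allow; Benjamini-Hochberg adjusted p = 0.000781 over the 8 density and strength comparisons).

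The terminal kilobase was dense in peaks, while the mean density behind it was below that of the rest of the chromosomes. The terminal 1 kb held 0.883 ± 0.0694 peaks per kb, against 0.0669 ± 0.0107 between 1 and 20 kb (mean ± SD, n = 12), a mean log2 ratio of 3.74 ± 0.17 or 13.3-fold (exact sign-flip permutation test, adjusted p = 0.000781, higher in 12 of 12 libraries). Each of the 16 right ends was placed at the outermost base of any peak, so a terminal peak in at least 1 library is fixed there. The 16 left ends begin at position 1 and depend on no peak, and over these alone the terminal kilobase held 0.891 ± 0.100 peaks per kb, against 0.0710 ± 0.00996 between 1 and 20 kb, a mean log2 ratio of 3.65 (exact sign-flip permutation test, p = 0.000488, added after seeing the data). Over all ends, between 1 and 20 kb the density was lower than in the rest of the chromosomes, by a mean log2 ratio of -0.42 ± 0.14 or 0.747-fold (exact sign-flip permutation test, adjusted p = 0.000781, lower in 12 of 12). The 1 kb edge is among the band edges given below, which were chosen with the summit positions known. The p-values for it thus show only that the libraries agree. The lower density between 1 and 20 kb depended on how peaks were counted and on the ends. As a covered share of bases the log2 ratio was -0.041 (exact sign-flip permutation test, p = 0.147), and with peaks of -log10 q of at least 10 alone it was 1.06, that is, higher than in the rest of the chromosomes. At the 16 ends with a long gene near the tip, described below, it was 0.31, and at the other 16 ends -2.004.

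**Figure D1:**
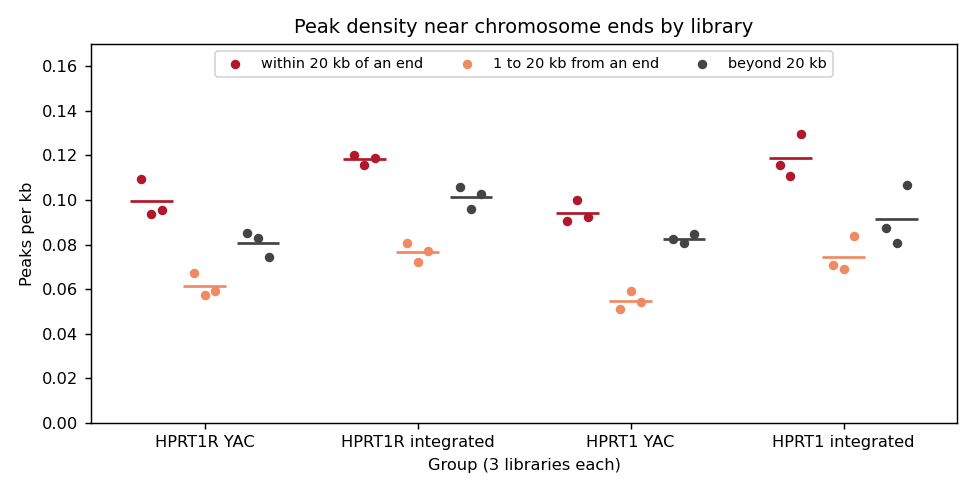
Peaks per kb (vertical axis) in each of the 12 libraries by group, for the outer 20 kb, the part between 1 and 20 kb, and the chromosomes beyond 20 kb; points are libraries and short bars group means. In every library the outer 20 kb lie above the chromosomes beyond 20 kb, and the part from 1 to 20 kb lies below them.

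Strength followed position as well. Fold enrichment is the authors' ratio of the pileup at the summit to the local background, and each list is compared only with itself. The median subtelomeric peak had a fold enrichment of 4.15, 4.54 and 3.91 in HPRT1R YAC libraries, against 3.47, 3.52 and 3.26 for the peaks farther in. In HPRT1R integrated libraries the medians were 4.21, 5.02 and 4.47 against 3.58, 3.98 and 3.58. In HPRT1 YAC libraries they were 4.37, 3.91 and 4.40 against 3.41, 3.15 and 3.52. In HPRT1 integrated libraries they were 4.16, 4.15 and 4.62 against 3.38, 3.57 and 3.76. The subtelomeric median was the higher in all 12 lists, by 0.30 ± 0.05 on the log2 scale or 1.23-fold (exact sign-flip permutation test, adjusted p = 0.000781). Subtelomeric peaks also had a median width of 396 ± 38.1 bp, against 296 ± 11.8 bp farther in, and a median summit pileup of 28.6 ± 2.38 reads, against 23.3 ± 1.48 reads (mean of library medians ± SD, n = 12).

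The median local background sat at the library-wide floor near the ends and farther in, in all 12 libraries, so that medians could show no difference. A raised background, over 1.1 times the library median, was found at 17.9% ± 7.52 of subtelomeric peaks, against 6.85% ± 2.80 of peaks farther in (mean ± SD, n = 12). It was found at none of the peaks in the terminal 1 kb, at 37.1% ± 14.5 of those at 1 to 4 kb and at 40.7% ± 18.9 of those at 4 to 7 kb. A fold enrichment at those distances is thus often relative to a higher local read level, and the part this plays in the densities was not tested.

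Distance from the end split the window into bands. Over all 32 ends the density was 0.883 peaks per kb in the terminal kilobase, 0.0946 ± 0.0375 at 1 to 4 kb, 0.191 ± 0.0103 at 4 to 7 kb, 0.0234 ± 0.0141 at 7 to 10 kb, 0.0391 ± 0.00471 at 10 to 15 kb and 0.0297 ± 0.0153 at 15 to 20 kb (mean ± SD, n = 12). The bands up to 7 kb thus stood above the 0.0891 of the chromosomes farther in, at 1 to 4 kb by less than the SD, and the 3 bands beyond 7 kb stood below. Median fold enrichment over the pooled peaks had another order, at 4.55 in the terminal kilobase, 2.80 at 1 to 4 kb, 5.62 at 4 to 7 kb, 4.16 at 7 to 10 kb, 4.14 at 10 to 15 kb and 3.00 at 15 to 20 kb. It was lowest at 1 to 4 kb and highest at 4 to 7 kb. The band edges were chosen with the summit positions known, so these values carry no test.

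Among strong peaks the bands were sharper. Of the 827 subtelomeric peaks, 367 had a -log10 q of at least 10, and 168 of these lay in the terminal kilobase and 163 at 4 to 7 kb. None lay at 1 to 4 kb, and the other 36 lay between 7 and 20 kb. Peaks of this strength were on average 30.6 of 68.9 subtelomeric peaks in a library, against 203 of 1088 nuclear peaks. Their number within 20 kb ran from 16 to 44 per library.

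**Figure D2:**
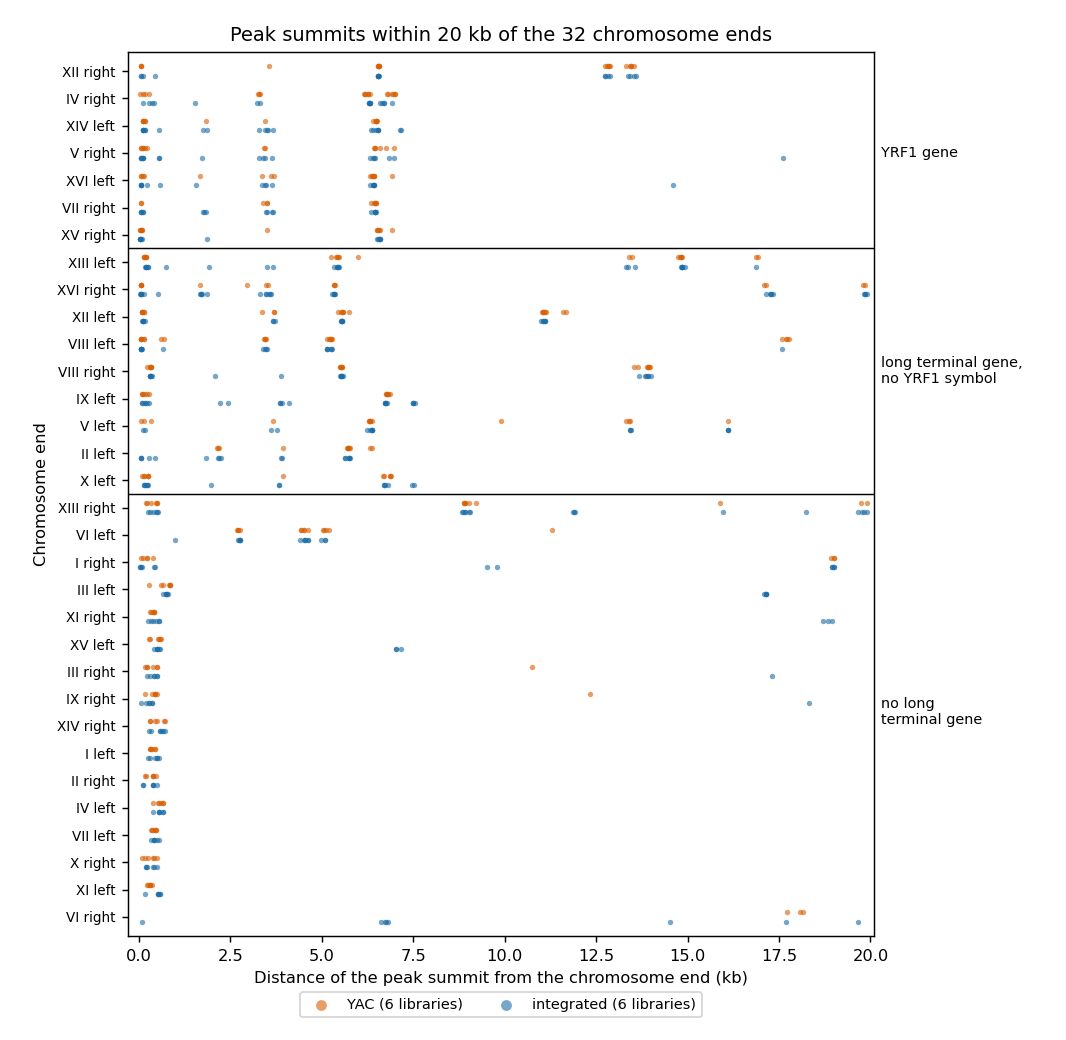
Each point is a peak summit at its distance in kb from the end (horizontal axis), with the 32 chromosome ends down the page in 3 classes and YAC libraries drawn just above integrated libraries. All ends have summits in the terminal kilobase, 1 each at VI left and VI right, whereas the summits at 4 to 7 kb belong to the upper 2 classes apart from VI left and VI right.

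All 16 left ends had a terminal peak in at least 1 library and 12 of them had it in all 12 libraries, and 10 of the 16 right ends had it in all 12. A library had a terminal peak at 24 to 29 ends and a peak between 1 and 20 kb at 18 to 24 ends. The terminal summits were not all at the same distance, which for right ends is counted from the outermost peak base. At the 7 ends with a YRF1 gene the median summit lay 45.5 to 228 bp from the end, with a median of 69 bp over ends, and at the other 25 ends it lay 62.5 to 984 bp away, with a median of 339.5 bp. Of these 25, the 9 with a long gene near the tip, described below, had 62.5 to 315.5 bp, with a median of 129 bp. The 16 with none had 98 to 984 bp, with a median of 408.25 bp. At VI left, where the terminal kilobase held a peak in 1 library, the summit lay at 984 bp, and VI right likewise had a terminal peak in 1 library, at 98 bp.

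Ends with a YRF1 gene had more peaks per kb than the other 25 ends as a whole, but not more than the 9 of these that also have a long gene near the tip, which had 0.156 ± 0.0248. A YRF1 symbol was found at IV right, V right, VII right, XII right, XIV left, XV right and XVI left, with 8 genes in all because XII right holds both YRF1-4 and YRF1-5. The density over 20 kb at these ends was 0.143, 0.121 and 0.121 peaks per kb in HPRT1R YAC libraries, against 0.100, 0.086 and 0.088 at the other 25 ends. In HPRT1R integrated libraries it was 0.164, 0.143 and 0.136 against 0.108, 0.108 and 0.114. In HPRT1 YAC libraries it was 0.107, 0.129 and 0.136 against 0.086, 0.092 and 0.080. In HPRT1 integrated libraries it was 0.136, 0.171 and 0.157 against 0.110, 0.094 and 0.122. The YRF1 ends were denser within each of the 12 libraries, at 0.139 ± 0.0186 against 0.0990 ± 0.0133 peaks per kb, a mean log2 ratio of 0.49 ± 0.18 or 1.40-fold (exact sign-flip permutation test, adjusted p = 0.000781). The same ends recur in all 12 libraries, so this p-value measures the spread between libraries and not between ends. Without the terminal kilobase the log2 ratio was 0.84.

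The difference in peaks per kb was largest between 1 and 7 kb. At 1 to 4 kb the YRF1 ends had 0.175 ± 0.0869 peaks per kb, against 0.0722 ± 0.0309 at the other 25 ends (mean ± SD, n = 12). At 4 to 7 kb they had 0.377 ± 0.0245 peaks per kb, against 0.139 ± 0.012 at the others, with a pooled median fold enrichment of 6.33, and all 7 had such a peak in all 12 libraries. In the terminal kilobase they had 0.845 ± 0.166 peaks per kb, against 0.893 ± 0.0574 at the others. Between 7 and 20 kb they had 0.0211 ± 0.00989 peaks per kb, against 0.0349 ± 0.0102 at the others. In the band at 10 to 15 kb they had 0.0452 ± 0.0147, against 0.0373 ± 0.00521 at the others. At 15 to 20 kb the YRF1 ends had 0.00238 ± 0.00825, from 1 peak in all lists, against 0.0373 ± 0.02 from 56 peaks, a larger ratio and in the other direction. These values describe the bands and carry no test.

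Some ends without the YRF1 symbol also had a long gene near the tip. Of the other 25 ends, 9 had a protein-coding gene of at least 1 kb whose nearer edge lay within 1 kb of the end but which carries no YRF1 symbol in the gene table, such as YHL050C at VIII left and YIL177C at IX left. Y' elements themselves are not marked in the table. This class was drawn after the positions were seen and carries no test. At these 9 ends the density at 4 to 7 kb was 0.318 ± 0.0369 peaks per kb, with a peak in all 12 libraries at 6 of them and in 8 to 11 libraries at IX left, X left and XVI right. Between 1 and 20 kb it was 0.117 ± 0.0204, against 0.102 ± 0.0171 at the YRF1 ends. At 10 to 15 kb it was 0.0907 ± 0.0149, near the 0.0891 of the chromosomes beyond 20 kb, against 0.0452 ± 0.0147 at the YRF1 ends. The summits lay 5242.5 to 6765 bp from the end, against 6288 to 6553.5 bp at the YRF1 ends (medians of each end).

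The remaining 16 ends, with no long terminal gene, had few peaks behind the terminal one, with VI left and XIII right as exceptions. Between 1 and 20 kb they had 0.0236 ± 0.0084 peaks per kb, against 0.110 ± 0.0136 at the 16 ends with a long terminal gene, YRF1 or other (mean ± SD, n = 12). Of the 488 peaks between 1 and 20 kb, 402 lay at the ends with a long terminal gene and 86 at the other 16, of which VI left held 28 and XIII right 24. Both of these had a peak between 1 and 20 kb in all 12 libraries. VI left does hold a gene longer than 1 kb, YFL066C (1437 to 2615), but its nearer edge lies past the 1 kb limit of the class. At I left, II right, IV left, VII left, X right, XI left and XIV right no library had a peak between 1 and 20 kb. At 14 of the 16 no library had a peak at 4 to 7 kb, whereas VI left had a peak there in all 12 libraries and VI right in 4. In the terminal kilobase, by contrast, the 16 ends had 0.891 ± 0.0388 peaks per kb, against 0.875 ± 0.136 at the ends with a long terminal gene.

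**Figure D3:**
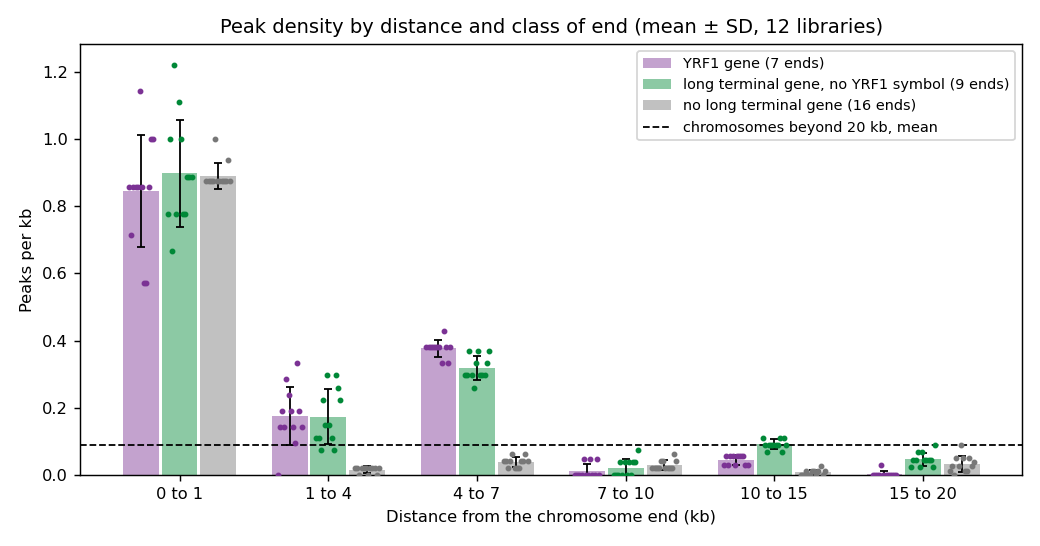
Peaks per kb (vertical axis) in 6 bands of distance from the end (horizontal axis, kb) for ends with a YRF1 gene, ends with another long terminal gene and ends with none; bars are means, error bars SD and points the 12 libraries, and the dashed line is the mean beyond 20 kb. The 3 classes are alike in the terminal kilobase and part at 1 to 7 kb, where the ends with no long terminal gene lie below the dashed line.

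Single ends ranged from 0.917 to 3.92 peaks per library. XIII left had 3.92 ± 1.08 (SD, n = 12), XVI right 3.92 ± 2.15 and XII left 3.67 ± 0.651, and all 3 have a long terminal gene without a YRF1 symbol. XVI right was the most variable, with 0 to 7 peaks per library and means of 2.50 in YAC and 5.33 in integrated libraries. The fewest were at VI right, with 0.917 ± 0.793, followed by 6 ends that each had exactly 1 peak in each of the 12 libraries: I left, II right, IV left, VII left, X right and XI left. In those 6 the peak was the terminal one, with a median summit 310 to 552.5 bp from the end and a median fold enrichment of 4.23 to 5.22.

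Merging peaks that overlap by at least 1 bp across the 12 lists gave 118 subtelomeric regions, of 2047 on all nuclear chromosomes. A peak in all 12 libraries was found at 40 of the 118, or 33.9%, against 21.1% of all nuclear regions. Of these 40, 22 were terminal, 14 lay at 4 to 7 kb and 4 lay elsewhere. The summit lay outside annotated genes at 38 of the 40, and the share for all nuclear regions is not given here. Across the 40, mean fold enrichment ran from 3.76 to 13.6, with a median of 5.13, and length from 332 to 1324 bp, with a median of 809 bp. A further 29 regions were found in 1 library and 49 in 2 to 11.

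The strongest region lay at the tip of XV right (chromosome XV, 1090571 to 1091273), with its summit 45.5 bp from the end, beyond the 3' end of YRF1-8. Its fold enrichment was 13.1, 12.2 and 12.4 in HPRT1R YAC libraries, 15.7, 17.1 and 14.005 in HPRT1R integrated libraries, 11.4, 11.1 and 12.02 in HPRT1 YAC libraries and 13.8, 14.01 and 16.1 in HPRT1 integrated libraries (13.6 ± 1.92, n = 12). All integrated values were above all YAC values, but a fold is relative to the background of its own library, so this difference was not tested. The tip of XII left (36 to 496) had 12.5, 9.97 and 8.32 in HPRT1R YAC, 12.5, 11.1 and 13.1 in HPRT1R integrated, 9.18, 10.7 and 11.4 in HPRT1 YAC and 12.6, 11.6 and 12.3 in HPRT1 integrated libraries (11.3 ± 1.49). The 2 formats overlapped there. Median pileups at these summits were 88 and 79.5 reads. Another terminal region among the strongest, at VIII left (27 to 782), had a mean of 8.94 ± 1.98, with 6.18 to 11.0 in YAC and 9.01 to 11.1 in integrated libraries.

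The other 7 of the 10 strongest regions lay 5533.5 to 6553.5 bp from an end, and 5 of them lay upstream of a YRF1 gene. The region at XII right (1071197 to 1072067), between YRF1-4 and YRF1-5, had a mean fold enrichment of 10.1 ± 1.03 and a median pileup of 100.5 reads. XVI left (6016 to 7131) had 7.27 ± 0.924, XIV left (6114 to 7229) 6.77 ± 1.09, XV right (1084154 to 1085198) 6.74 ± 1.04 and VII right (1083725 to 1084842) 6.44 ± 0.882 (SD, n = 12 each). The pair not beside a YRF1 gene were II left (5361 to 6381), with 6.62 ± 0.718, and VIII right (556210 to 557433), with 6.55 ± 0.839. Each of these 7 regions had overlapping ranges in the YAC and integrated libraries.

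**Figure D4:**
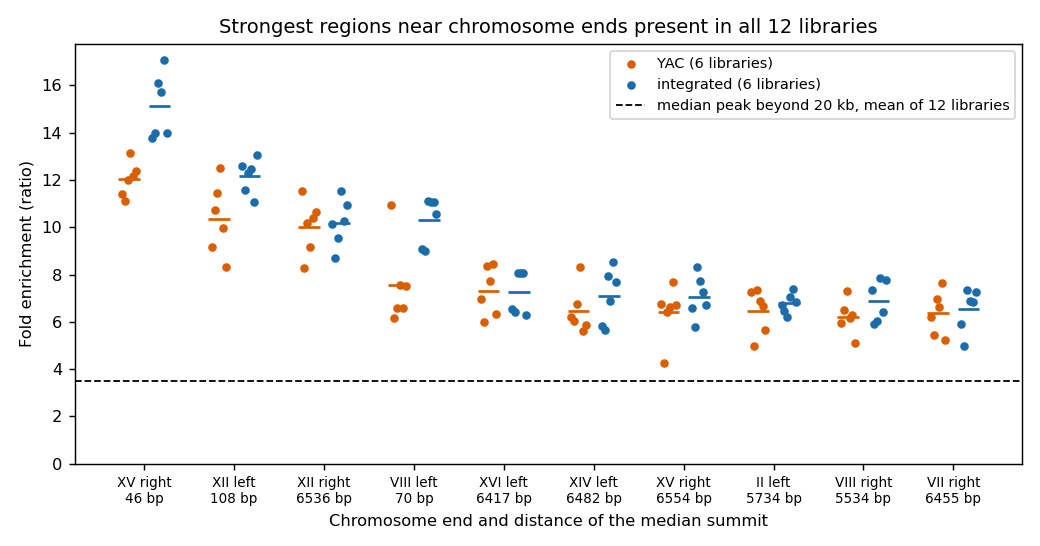
Fold enrichment (vertical axis, ratio to local background) of the 10 regions with the highest mean percentile of fold enrichment among subtelomeric regions present in all 12 libraries, named by end and summit distance in bp; points are libraries, short bars are means of 6 and the dashed line is the mean of the library medians beyond 20 kb. All values lie above the dashed line, and the formats are apart at the tip of XV right.

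The other 4 regions found in all 12 libraries lay neither at the tip nor at 4 to 7 kb. At XIII right (914863 to 915725) the summit lay 849 bp upstream of FET4, a low-affinity iron transporter gene, with a mean fold enrichment of 4.57 ± 0.926. At VIII right (548424 to 549409) the summit fell inside YHR214C-B and YHR214C-C, with 4.31 ± 0.517. At XII left (10651 to 11853) the mean was 6.30 ± 0.661, and at XII right (1064391 to 1065714) it was 5.02 ± 0.823. The summit at XII right lay 890 bp upstream of YLR462W and 2021 bp upstream of YRF1-4.

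Every YRF1 gene had a region present in all 12 libraries on its upstream side. Another gene starts nearer to the summit at YRF1-4 (YLR462W, 890 bp), YRF1-2 (YER188C-A, 475.5 bp) and YRF1-8 (YOR394C-A, 350.5 bp). The share of all genes with such a region is not given here. The summit lay 385.5 to 2021 bp upstream of the annotated start, with a median of 769.25 bp, and the mean fold enrichment was 4.95 to 10.1, with a median of 6.59. The nearest were those of YRF1-6 (YNL339C, chromosome XIV, 371 to 6098), at 385.5 bp, YRF1-7 (YPL283C, chromosome XVI, 280 to 6007), at 411 bp, and YRF1-3 (YGR296W, chromosome VII, 1084864 to 1090591), at 416 bp. These 3 genes had a summit in the promoter, taken as 500 bp upstream to 100 bp downstream of the start, in all 12 libraries. At YRF1-8 (YOR396W, 753.5 bp), YRF1-1 (YDR545W, 785 bp), YRF1-5 (YLR467W, 878 bp), YRF1-2 (YER190W, 1097.5 bp) and YRF1-4 (YLR466W, 2021 bp) the summits lay farther out, and no library had a summit in the promoter window. The farther summits belong to genes with shorter annotated coding regions, which start nearer to the end except at YRF1-4.

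Within the YRF1 genes peaks were weaker and less regular. YRF1-1 held 11 over the 12 lists, YRF1-3, YRF1-6 and YRF1-7 held 10 each and YRF1-2 held 9, in 7 to 9 libraries per gene. YRF1-5 and YRF1-8 held 2 each and YRF1-4 none. At the YRF1 ends the peaks at 1 to 4 kb had a pooled median fold enrichment of 2.68, against 6.33 for the upstream ones at 4 to 7 kb.

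**Figure D5:**
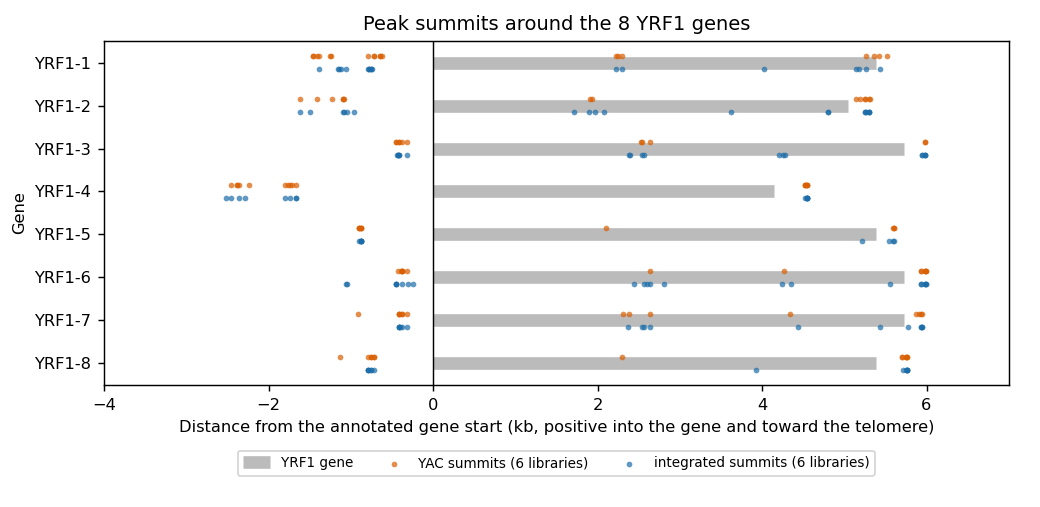
Peak summits (points) around the 8 YRF1 genes, by distance in kb from the annotated gene start (horizontal axis, positive toward the telomere), with the gene as a grey bar and YAC summits above integrated summits. Each gene has a cluster upstream of its start and another near or past its end, and 7 of the 8 have scattered summits inside.

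Promoters of subtelomeric genes were less often marked by a peak than those of other genes. Of 236 protein-coding genes that start within 20 kb of an end, 16 (6.78%) had a promoter summit in at least 6 of the 12 libraries, against 15.3% of genes that start farther in and 15.0% of all 6002 genes. No library had a promoter summit at 202 of the 236 (85.6%), against 63.0% of all genes. Per library, 7.06% ± 0.962 of subtelomeric genes had a promoter summit, against 15.99% ± 2.09 of genes farther in (mean ± SD, n = 12), a mean log2 ratio of -1.18 (exact sign-flip permutation test, p = 0.000488, a measure added after seeing the data). The direction is thus opposite to that of peaks per kb, and genes were sparser near the ends, at 0.369 per kb against 0.504 per kb.

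By family, the YRF1 genes were the only ones with promoter summits in at least 6 libraries, at 3 of 8 genes. In the 13 other families listed, which have 70 members in the window, no gene reached 6 libraries and 68 had no promoter summit in any library. None was found at the 19 seripauperin genes (PAU), of a cell wall mannoprotein family, the 11 COS genes, the 9 maltose and isomaltose genes, the 5 aryl alcohol dehydrogenase genes (AAD) or the 4 hexose transporter genes (HXT). Nor was any found at the silent mating genes HMLALPHA1 and HMLALPHA2, the arsenic resistance genes ARR1, ARR2 and ARR3, or the acid phosphatase genes PHO11 and PHO12. The exceptions were SNO3 and SNZ3, neighbouring genes of the vitamin B6 group, with a promoter summit in 1 library each. The flocculin list had no member in the window. Here and in the counts over all subtelomeric genes, an absent summit may mean a peak under the calling threshold. How reads matching several family members were placed is also not stated.

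Of the 16 genes with a promoter summit in at least 6 libraries, 6 carry a name. These were YRF1-3, YRF1-6 and YRF1-7 in 12 libraries each, COX14, needed for cytochrome c oxidase assembly in mitochondria, in 11, and RMD6 and DIA1 in 6 each. The other 10 are listed by systematic name alone, among them YNR077C, YOL166W-A and YOR394C-A in 12 libraries each. YOR394C-A starts 6904 bp from XV right, so its promoter summit is the region also counted upstream of YRF1-8. In the same way, the promoter summits of YER188C-A lie in the region counted upstream of YRF1-2. Those of YNR077C, YOL166W-A and YCR108C, which start 677, 584 and 320 bp from an end, are terminal peaks already counted above.

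The balance between subtelomere and interior was compared between formats and constructs. The log2 ratio of densities was 0.24 ± 0.11 in YAC and 0.30 ± 0.11 in integrated libraries (mean ± SD, n = 6 each), a difference of -0.06 that was within the spread between libraries (exact two-sided permutation test within constructs, p = 0.37; the smallest p possible is 0.005). With fold enrichment of at least 3 the difference was 0.10 (exact permutation test, p = 0.265). With -log10 q of at least 10 it was 0.70 (exact permutation test, p = 0.01), with 16 to 29 subtelomeric and 31 to 151 other peaks left in YAC libraries, against 29 to 44 and 148 to 349 in integrated libraries. Without HPRT1R YAC replicate 3, the list with fewest such peaks, it was 0.47 (exact permutation test, p = 0.015). The sign of this comparison therefore depends on the threshold. HPRT1R and HPRT1 libraries had log2 ratios of 0.26 ± 0.08 and 0.29 ± 0.14 (n = 6 each), a difference of -0.03 (exact permutation test within formats, p = 0.735).

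Single regions could hardly be called different between formats with 6 libraries each. The smallest p that Fisher's exact test allows is 0.00216, and over 967 regions 42 would have to reach it before any passed, whereas 5 did. Of these 967 nuclear regions present in 2 to 10 libraries, 0 passed an adjusted p of 0.05 by Fisher's exact test with Benjamini-Hochberg adjustment (smallest adjusted p = 0.419), and 46 of those tested were subtelomeric. At an unadjusted p under 0.05, 4 nuclear regions (0.414%) had more YAC and 11 (1.14%) more integrated libraries, and 1 of these was subtelomeric. It was III left (16998 to 17234), between CHA1, which encodes a serine and threonine deaminase, and VAC17, which acts in vacuole inheritance. No YAC library had a peak there, against 5 of the 6 integrated libraries (Fisher's exact test, p = 0.0152, adjusted p = 0.977).

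The regions that differed by at least 4 libraries all lay on the integrated side. There were 8 of 118, or 6.78%, against 2.25% of all nuclear regions, and 0 with at least 4 more YAC libraries, against 0.244%. Besides III left, 4 had no peak in YAC libraries and a peak in 4 integrated libraries, at II left (17 to 363), IX left (3672 to 4246 and 7342 to 7585) and VI right (263202 to 263635, 850 bp upstream of IRC7, a cysteine metabolism gene). XIV left (3285 to 3774), inside YRF1-6, had 1 YAC and 5 integrated libraries, and XVI right had 2 and 6 libraries at 944119 to 944746 and 1 and 5 at 945882 to 946413. Their mean fold enrichments were 2.64 to 4.02, all below the 5.13 median of the regions found in all 12 libraries. Over the 118 regions, 14 were found in more YAC libraries, 58 in more integrated libraries and 46 in as many of both. The same split over all nuclear regions is not given here, so these counts cannot be read as particular to the ends. The integrated lists held more nuclear peaks, with a mean of 1179 against 996 in YAC lists.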

How the data were processed

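The deposited files were MACS2 narrowPeak lists, 1 per library and none pooled. Per the submitters' processing notes, the tools were MACS2 2.1.0, Bowtie2 2.2.9, bcl2fastq 2.20, deepTools 3.5.0 and SAMtools 1.9, on sacCer3. Not given in the sources used here are calling options, duplicate filters and the placing of multi-mapping reads. Each deposited row gives the authors' fold enrichment (a ratio), -log10 p, -log10 q, a score that was not used, and a summit.

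Chromosome ends and genes came from the RefSeq R64 gene table, a chromosome ending at its outermost annotated or peak base (12070.2 kb in all). Distances from right ends may therefore be short, and peaks counted just inside 20 kb of a right end may lie beyond it. All 16 right ends were set by a peak, and left ends by position 1. Pileup and background were recovered from fold and p under the Poisson model of MACS2, with pseudocount 1 and a tolerance of 0.01 in -log10 p, for 99.9% of nuclear peaks and all subtelomeric ones. No row was shared by 2 libraries.

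Per-library log2 ratios were tested with exact sign-flip permutation tests, formats and constructs with exact permutation tests within the other factor, and regions with Fisher's exact test. Deviations of same-numbered libraries had low correlations (-0.0506 to 0.0637 over 18 pairs, 0 above 0.1), although 7 of 12 libraries correlated best with a library of their own number. Replicate numbers were not taken as pairs, and results with them as a block are given at the end. The regions named were the 10 with the highest mean within-list percentile of fold enrichment among those in all 12 libraries, those that differed by at least 4 libraries between formats, the 3 fullest and emptiest ends, and each YRF1 gene, besides regions and genes that fall in counts of few and were chosen after their values were seen. The members, bands and gene lists were chosen with earlier results of these data known. Scripts were tested on simulated data. Python 3.11.15, numpy 2.4.6, pandas 2.3.3 and scipy 1.17.1 were used.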

Additional observations from a re-analysis of the deposited data

Results flagged for a closer look

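The difference between formats in the subtelomere to interior density ratio was not the same for the 2 constructs. YAC minus integrated was 0.08 on the log2 scale in HPRT1R libraries and -0.19 in HPRT1 libraries, a difference of 0.27 (exact permutation of format labels within constructs, p = 0.04). By the same exact permutation test it was 0.22 with fold enrichment of at least 3 (p = 0.23), 0.38 with -log10 q of at least 10 (p = 0.625), 0.18 with a 10 kb window (p = 0.105) and 0.17 as a covered share (p = 0.135). Leaving out single libraries gave 0.23 to 0.33, with p from 0.015 to 0.08, so the call does not hold under most of these settings.

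At the tip of VIII left (27 to 782), HPRT1 YAC replicate 1 had a fold enrichment of 10.96, far from the other 5 YAC libraries, the nearest of which had 7.54. The integrated libraries had 9.01 to 11.1 at this region. It was the single such case among 40 sets of 6 values, and chance gives about 1 in 20.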

How the results depend on the processing

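The terminal excess (3.65 at left ends alone, added after seeing the data), the difference between YRF1 and other ends and the higher fold enrichment kept their direction and side of the threshold in all settings run. A setting that classed ends by a long terminal gene instead (1.15, chosen after seeing the data) compares another class and does not check the YRF1 difference. The 9 ends with a long terminal gene and no YRF1 symbol had 0.156 peaks per kb, against 0.139 at the YRF1 ends. The density of the outer 20 kb over the rest was 0.40, 1.84, 1.05 and 0.56 on the log2 scale with fold of at least 3, -log10 q of at least 10, a 10 kb window and covered share, and -1.18 when measured as the share of genes with a promoter peak, an alternative chosen after seeing the data. The ratio of 1 to 20 kb over the rest was -0.041 as covered share (exact sign-flip permutation test, p = 0.147), 1.06 with -log10 q of at least 10 and, chosen after seeing the data, 0.31 at the ends with a long terminal gene alone and -2.004 at the others. YAC against integrated was 0.10 with fold of at least 3, 0.70 with -log10 q of at least 10, 0.47 with that threshold and no HPRT1R YAC replicate 3 (chosen after seeing the data) and 0.013 as covered share. HPRT1R against HPRT1 was 0.036 with -log10 q of at least 10, and leaving out single libraries gave -0.051 to 0.0053, above 0 without HPRT1 YAC replicate 2 or HPRT1R YAC replicate 2. The causes were not tested. With the replicate number as a block, YAC against integrated was -0.06 (exact sign-flip permutation test, p = 0.469) and HPRT1R against HPRT1 -0.03 (p = 0.812), with 0 regions called. The count of called regions was 0 in all settings, which at 6 libraries a format says nothing of stability. Peak lists hold no depth, so an absent peak may lie under the calling threshold, and copies of Y' elements may share reads.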
